A study of Mus musculus with 2 samples.

Results

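The 9 microRNA (miRNA) genes described here form 3 paralogous clusters of the mouse genome, each holding in order 1 gene of the miR-99/100 family, 1 let-7 gene and 1 miR-125 gene. They are Mir99a, Mirlet7c-1 and Mir125b-2 on chromosome 16, Mir100, Mirlet7a-2 and Mir125b-1 on chromosome 9, and Mir99b, Mirlet7e and Mir125a on chromosome 17. They were taken by symbol from the 2202 miRNA genes counted in the deposited files. Short RNA was sequenced from gastrocnemius, a calf muscle, of female adult B6CASTF1/J mice, an F1 hybrid strain, at 18 to 20 months of age. There was 1 group of 2 libraries, numbered in the labels as biological replicates 1 and 2. The labels give both libraries the same donor entry and different tissue entries, so the spread between them may be technical.

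Animal miRNAs are cut from hairpins in a longer transcript, and bases 2 to 8 of the mature strand, called the seed, do most of the target recognition. In Drosophila, miR-100, let-7 and miR-125 are made from a single transcript that acts in the timing of development, and vertebrates carry several copies of that arrangement. let-7 is abundant in differentiated tissues, where it represses growth and cell cycle genes, and its maturation is blocked by the RNA-binding protein LIN28. miR-125 is the vertebrate relative of lin-4 of Caenorhabditis elegans and in mouse myoblasts has been described as a repressor of Igf2, while miR-99 and miR-100 are known for repressing members of the mTOR pathway.

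The 5p mature miRNAs show why the clusters count as paralogous and which of their genes can be told apart by a read. They are written 5′ to 3′ from the RefSeq table for GRCm38.p6, with the seed in capitals. Every 5p miRNA of a family carries 1 seed, so the 9 genes make 3 seeds.
miR-99a-5p (Mir99a): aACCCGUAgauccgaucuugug
miR-100-5p (Mir100): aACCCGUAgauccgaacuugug
miR-99b-5p (Mir99b): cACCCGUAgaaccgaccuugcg
let-7c-5p (Mirlet7c-1): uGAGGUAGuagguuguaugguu
let-7a-5p (Mirlet7a-2): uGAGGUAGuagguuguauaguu
let-7e-5p (Mirlet7e): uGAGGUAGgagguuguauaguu
miR-125b-5p (Mir125b-1 and Mir125b-2): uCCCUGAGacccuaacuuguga
miR-125a-5p (Mir125a): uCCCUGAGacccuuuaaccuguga

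Positions are counted from 1 at the 5′ end. miR-99a and miR-100 differ by the single substitution U16A, and miR-99a and miR-99b by A1C, U11A, U16C and U21C. let-7a and let-7c differ by A19G, and let-7a and let-7e by U9G. miR-125b has 22 bases and miR-125a has 24, of which the first 13 are the same. The entry used for Mirlet7a-2 was matched by miRNA name.

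A search of all 2202 annotated hairpins on both strands found the 5p miRNAs of 5 cluster genes at 1 locus and those of 4 at 2 loci. let-7c-5p lies in Mirlet7c-1 and Mirlet7c-2, let-7a-5p in Mirlet7a-1 and Mirlet7a-2, and miR-125b-5p in both Mir125b-1 and Mir125b-2. The files keep multimapping reads in a tally of their own, outside the gene counts. A read of exactly the mature let-7c, let-7a or miR-125b sequence therefore fits 2 places and can enter no gene count, and the counts of Mirlet7c-1, Mirlet7a-2, Mir125b-1 and Mir125b-2 are lower bounds. Levels scaled to the sum of gene counts are not bounds, because that sum leaves out multimapping reads too. With bases added at the 3′ end, miR-125b-5p fits a single annotated hairpin after 1 base, and let-7a-5p and let-7c-5p after 2. The 3p arms of these 4 genes each fit a single annotated locus. They are shown with bases 2 to 8 in capitals because their reads can be assigned.
let-7c-1-3p (Mirlet7c-1): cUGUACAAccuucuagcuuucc
miR-125b-2-3p (Mir125b-2): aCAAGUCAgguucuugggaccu
let-7a-2-3p (Mirlet7a-2): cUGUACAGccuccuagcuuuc
miR-125b-1-3p (Mir125b-1): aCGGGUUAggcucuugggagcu

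The clusters differ in layout, with coordinates from GENCODE M21 on mm10 and all 9 genes on the plus strand. The chromosome 16 cluster spans 47408 bases within introns of the noncoding host gene Mir99ahg. Mir99a (ENSMUSG00000065530.1) lies at 77598936 to 77599000, Mirlet7c-1 (ENSMUSG00000065557.3) at 77599657 to 77599750, which leaves 656 bases between them, and Mir125b-2 (ENSMUSG00000065472.1) lies 46522 bases further on at 77646273 to 77646343. The first pair also lies opposite an intron of Gm11146, and the end of Mir125b-2 overlaps an exon of the same-strand gene C130023A14Rik.

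The chromosome 9 cluster spans 50578 bases within introns of the same-strand noncoding genes 3110039I08Rik and Gm49317. Mir100 (ENSMUSG00000093011.1) lies at 41531425 to 41531504, Mirlet7a-2 (ENSMUSG00000092770.1) at 41536716 to 41536811 after 5211 bases, and Mir125b-1 (ENSMUSG00000093354.1) at 41581926 to 41582002 after a further 45114 bases. Mir100 overlaps an exon of the opposite-strand noncoding gene Gm48742, and Mir125b-1 lies in an exon of the sense intronic gene Gm28119.

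The whole chromosome 17 cluster fits in 692 bases of Spaca6, a gene for a sperm membrane protein. Mir99b (ENSMUSG00000065396.1) at 17830188 to 17830257 and Mirlet7e (ENSMUSG00000105758.1) at 17830352 to 17830444 lie in introns of Spaca6, while Mir125a (ENSMUSG00000065479.2) at 17830812 to 17830879 overlaps an annotated Spaca6 exon. Mirlet7e also faces the annotated miRNA gene Gm25927 on the minus strand, which had 0 sense counts in both libraries.

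The libraries held 865419 gene counts in replicate 1 and 2177048 in replicate 2, against 5556809 and 8516459 multimapping reads. Levels are CPM, sense counts scaled to 1000000 gene counts in each library, with the SD over both libraries (n = 2). Intervals are exact Clopper-Pearson 95% intervals and, like the floor of 3 counts, cover counting error only. The skeletal muscle markers summed to 40925 CPM in replicate 1 and 104458 CPM in replicate 2 and all 8 had counts in both. Mir206 alone stood at 40388 and 103232 CPM and so set that sum, while Mir1a-2 stood at 270 and 162 CPM and Mir1a-1 at 25.4 and 22.0 CPM. The 6 neuronal markers, all Mir9 or Mir124a genes, held 1 and 5 counts in all. Any read that fits more than 1 of the Mir1a, Mir133a, Mir9 or Mir124a copies is left out of the gene counts. The low counts of these genes are therefore lower bounds and do not show that their miRNAs were scarce or absent. The smooth muscle markers Mir143 and Mir145a summed to 75404 and 37985 CPM and the endothelial marker Mir126a stood at 47279 and 52968 CPM. The 4 leukocyte markers summed to 3619 and 4085 CPM, with Mir142 at 246 and 96.0 CPM, Mir223 at 278 and 123 CPM and Mir155 at 1432 and 2120 CPM. The 2 erythroid markers summed to 230 and 316 CPM, and the liver marker Mir122 stood at 10.4 and 95.1 CPM. In whole muscle, fewer cells of a type and less miRNA per cell cannot be told apart.

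Together the 9 genes took 6.54% of gene counts in replicate 1 and 5.95% in replicate 2. The chromosome 16 cluster held 3.96% (interval 3.92 to 4.00) and 3.03% (3.01 to 3.05), the chromosome 9 cluster 1.57% (1.54 to 1.60) and 1.09% (1.08 to 1.11), and the chromosome 17 cluster 1.01% (0.989 to 1.03) and 1.83% (1.81 to 1.84). The first cluster was the largest in both libraries, while the other 2 changed places between the libraries. This order is one of gene counts. The sums on chromosomes 16 and 9 leave out reads of exactly the mature let-7c, let-7a or miR-125b sequence. On chromosome 17, each 5p miRNA fits a single annotated locus.

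Mir99a carried nearly the whole count of the chromosome 16 cluster. It had 33960 counts in replicate 1 and 64933 in replicate 2, or 39241 and 29826 CPM, which makes 34534 ± 6657 CPM and rank 10 of all miRNA genes by mean CPM. Mirlet7c-1 had 191 and 863 counts, or 221 and 396 CPM, and Mir125b-2 had 112 and 200 counts, or 129 and 91.9 CPM. Of the cluster's counts, Mir99a took 99.1% in replicate 1 (interval 99.0 to 99.2) and 98.4% in replicate 2 (98.3 to 98.5). Within a library its counts exceeded those of Mirlet7c-1 178-fold in replicate 1 (154 to 206) and 75.2-fold in replicate 2 (70.4 to 80.6). They exceeded those of Mir125b-2 303-fold (252 to 368) and 325-fold (283 to 375), ratios whose intervals overlap. Both lower genes share their 5p miRNA with another locus. These folds leave out such shared reads and may overstate the ratio of the mature miRNAs. The hairpin of Mir99a, the most counted of the 9 genes, is given for GRCm38.p6 chr16:77598936-77599000, plus strand, with both mature arms in capitals.
Mir99a hairpin: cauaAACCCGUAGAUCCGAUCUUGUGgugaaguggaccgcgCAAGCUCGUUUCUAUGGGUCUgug

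**Figure D1:**
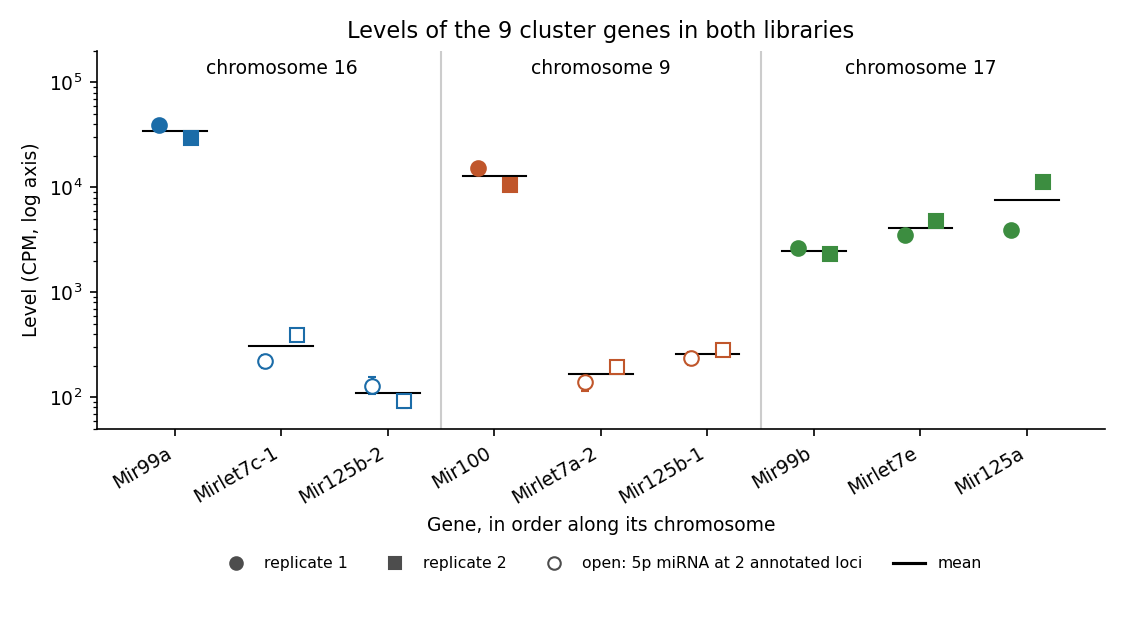
Level in CPM (log axis) of each cluster gene in replicate 1 (circles) and replicate 2 (squares), with exact 95% counting intervals, mostly smaller than the symbols, and the mean as a line. The 4 open-symbol genes, whose 5p miRNA lies at 2 annotated loci, sit between 91.9 and 396 CPM, and the 5 filled ones between 2333 and 39241 CPM.

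The chromosome 9 cluster had the same shape at lower counts, again with lower-bound counts for its let-7 and miR-125 genes. Mir100 had 13256 counts in replicate 1 and 22720 in replicate 2, or 15317 and 10436 CPM (12877 ± 3452 CPM, rank 18). Mirlet7a-2 had 121 and 425 counts, or 140 and 195 CPM, and Mir125b-1 had 204 and 617 counts, or 236 and 283 CPM. Mir100 took 97.6% (97.3 to 97.9) and 95.6% (95.3 to 95.9) of the cluster's counts. Its counts exceeded those of Mirlet7a-2 110-fold in replicate 1 (91.6 to 132) and 53.5-fold in replicate 2 (48.6 to 59.0), and those of Mir125b-1 65.0-fold (56.6 to 75.0) and 36.8-fold (33.99 to 39.95). Both ratios were lower in replicate 2 beyond counting error. Between the lower-bound genes, Mir125b-1 exceeded Mirlet7a-2 1.69-fold (1.34 to 2.13) and 1.45-fold (1.28 to 1.65), with overlapping intervals.

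On chromosome 17, where each 5p miRNA fits a single annotated locus, the 3 genes were counted at levels of the same order. Mir99b had 2311 counts in replicate 1 and 5080 in replicate 2, or 2670 and 2333 CPM (2502 ± 238 CPM, rank 41). Mirlet7e had 3043 and 10344 counts, or 3516 and 4751 CPM (4134 ± 873 CPM, rank 32). Mir125a had 3389 and 24310 counts, or 3916 and 11166 CPM (7541 ± 5127 CPM, rank 28). Mir125a was the most counted gene of the cluster in both libraries and Mir99b the least, but the distances between them were unequal.

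Mir125a took 38.8% of the cluster's counts in replicate 1 (37.7 to 39.8) and 61.2% in replicate 2 (60.7 to 61.7), while Mir99b took 26.4% (25.5 to 27.4) and 12.8% (12.5 to 13.1). The ratio of Mir125a to Mir99b was 1.47 in replicate 1 (1.39 to 1.55) and 4.79 in replicate 2 (4.64 to 4.93), and that of Mir125a to Mirlet7e was 1.11 (1.06 to 1.17) and 2.35 (2.30 to 2.41). The ratio of Mirlet7e to Mir99b was 1.32 (1.25 to 1.39) and 2.04 (1.97 to 2.11). Genes 94 bases (Mir99b to Mirlet7e) and 367 bases (Mirlet7e to Mir125a) apart thus differed in ratio between the libraries by more than counting error, whatever the scaling of the libraries. The hairpin of Mir125a, the cluster gene that differed most between the libraries, is given for GRCm38.p6 chr17:17830812-17830879, plus strand, and that of Mirlet7e for chr17:17830352-17830444, plus strand, with both arms in capitals.
Mir125a hairpin: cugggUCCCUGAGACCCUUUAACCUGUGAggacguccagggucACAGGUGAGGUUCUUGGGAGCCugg
Mirlet7e hairpin: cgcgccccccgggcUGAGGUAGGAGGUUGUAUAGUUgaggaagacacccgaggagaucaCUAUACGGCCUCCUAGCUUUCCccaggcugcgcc

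**Figure D2:**
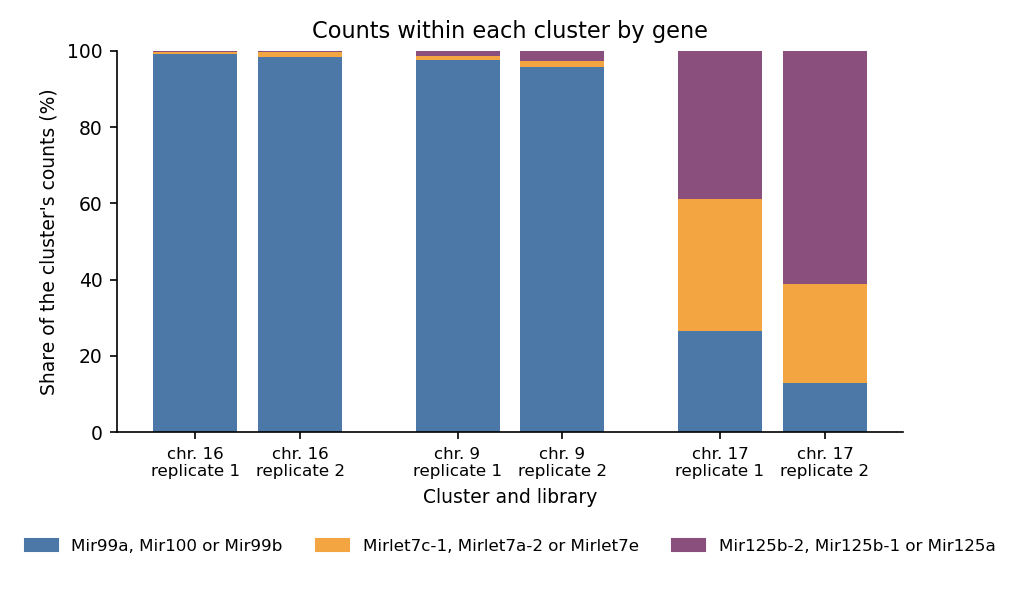
Share (%) of each cluster's counts taken by its miR-99/100, let-7 and miR-125 gene, 1 bar per cluster and library. Mir99a and Mir100 fill 95.6% to 99.1% of their bars, whereas Mir125a takes 38.8% and 61.2% of the chromosome 17 bars. The let-7 and miR-125 counts of chromosomes 16 and 9, unlike those of chromosome 17, leave out reads of exactly the mature 5p miRNA, which fit 2 annotated loci.

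Ordered by mean CPM, the genes ran Mir99a, Mir100, Mir125a, Mirlet7e, Mir99b, Mirlet7c-1, Mir125b-1, Mirlet7a-2 and Mir125b-2. Of the 8 neighbouring pairs in this order, 3 had ranges over the libraries that overlap: Mir100 with Mir125a, Mir125a with Mirlet7e, and Mirlet7c-1 with Mir125b-1. Per base of the annotated hairpin, the level ran from 531 CPM per base for Mir99a to 1.56 CPM per base for Mir125b-2. The order per base was the same except that Mir125b-1 (3.37 CPM per base) came before Mirlet7c-1 (3.28 CPM per base). Reads of this assay cover a mature miRNA and not the hairpin, so the ratios of counts given here are not divided by length.

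Between clusters, the counts of the miR-99/100 genes could be compared directly, since each 5p miRNA fits 1 annotated locus. Mir99a exceeded Mir100 2.56-fold in replicate 1 (2.51 to 2.61) and 2.86-fold in replicate 2 (2.82 to 2.90). Mir100 exceeded Mir99b 5.74-fold (5.49 to 5.998) and 4.47-fold (4.34 to 4.61), and Mir99a exceeded Mir99b 14.7-fold (14.1 to 15.3) and 12.8-fold (12.4 to 13.2). The order Mir99a, Mir100, Mir99b held in both libraries, and each of these ratios moved by less than 1.5 times between them. Reads of miR-99a and miR-100 are parted by 1 base, and the number of mismatches the alignment allowed is not given in the sources used here.

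On 2 of the 3 chromosomes, the counts of the let-7 and miR-125 genes are lower bounds. Folds of Mirlet7e or Mir125a over those genes leave out shared reads, so they may overstate the ratio of the mature miRNAs and are not minima. Ratios between 2 such genes may be off in either direction. Mirlet7e exceeded Mirlet7c-1 15.9-fold in replicate 1 (13.8 to 18.5) and 12.0-fold in replicate 2 (11.2 to 12.9), and exceeded Mirlet7a-2 25.1-fold (20.97 to 30.4) and 24.3-fold (22.1 to 26.9). Mirlet7c-1 exceeded Mirlet7a-2 1.58-fold (1.25 to 2.00) and 2.03-fold (1.81 to 2.29), with intervals that overlap. Mir125a exceeded Mir125b-2 30.3-fold (25.1 to 36.9) and 122-fold (106 to 140), and Mir125b-1 16.6-fold (14.4 to 19.2) and 39.4-fold (36.4 to 42.7). Mir125b-1, which makes the same 5p miRNA as Mir125b-2, exceeded it 1.82-fold (1.44 to 2.31) and 3.09-fold (2.63 to 3.64). Over the 9 pairs within and the 9 between clusters, the intervals of the 2 libraries overlapped for 4 of 18 pairs and did not for 14, or 77.8%. Over all pairs of the 305 genes that averaged 10 or more counts, 48.8% did not overlap, and the counts behind a pair set how wide its intervals are.

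**Figure D3:**
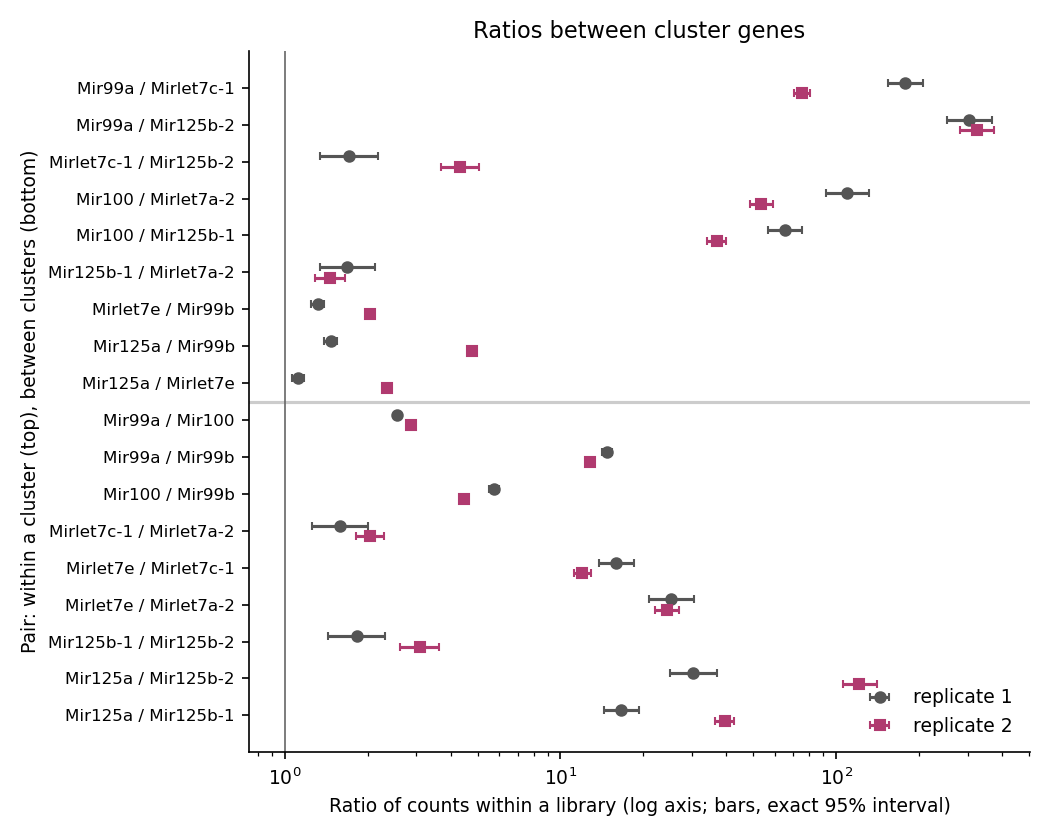
Ratio of counts within a library (log axis) for the 9 pairs within clusters and the 9 pairs between clusters, in replicate 1 (circles) and replicate 2 (squares), with exact 95% intervals. Mir125a to Mir125b-2 moves from 30.3 to 122, and Mir99a to Mir125b-2 stays at 303 and 325 with overlapping intervals. The counts of Mirlet7c-1, Mirlet7a-2, Mir125b-1 and Mir125b-2 leave out shared reads, so ratios over them may be overstated.

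Genes elsewhere that share a mature miRNA with the clusters were also counted low. Mirlet7a-1 on chromosome 13, the other source of let-7a, had 222 counts in replicate 1 and 646 in replicate 2 (277 ± 28.4 CPM), which is 1.83 times (1.46 to 2.31) and 1.52 times (1.34 to 1.72) the count of Mirlet7a-2. Mirlet7c-2 on chromosome 15, the other source of let-7c, had 499 and 1629 counts (662 ± 121 CPM), which is 2.61 times (2.21 to 3.10) and 1.89 times (1.74 to 2.05) the count of Mirlet7c-1. A shared sequence did not always go with few counts. Mirlet7f-1 and Mirlet7f-2 both hold let-7f-5p, and stood at 250 ± 35.0 and 7582 ± 261 CPM.

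By seed, the clusters covered very different parts of their families. They hold every counted gene with the seed of miR-99 and miR-100, which took 5.72% of gene counts in replicate 1 and 4.26% in replicate 2. Of the seed of miR-125, the 3 cluster genes held 96.5% and 97.6% of counts, the rest belonging to Mir351, a gene on another chromosome with 133 and 617 counts. Of the let-7 seed, which took 17.8% and 20.0% of gene counts, the 3 cluster genes held 2.17% and 2.67%. Most let-7 counts lay in Mirlet7i, Mirlet7g, Mirlet7b and Mirlet7d, whose means ranged from 30413 to 54697 CPM and whose 5p miRNAs each fit 1 annotated locus. Counts are per gene and do not part the 5p from the 3p arm. Reads of exactly the mature let-7a, let-7c, let-7f or miR-125b sequence fit more than 1 locus and are missing from these shares. The shares therefore describe gene counts and not all reads of a seed.

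Between the libraries, Mir125a was the only cluster gene called. The 305 genes that averaged 10 or more counts, all 9 cluster genes among them, were each tested by an exact binomial test of the replicate 2 counts given the sum of both libraries, two-sided and adjusted by Benjamini-Hochberg. A gene was called where it differed at least 2-fold with an adjusted p below 0.05. The test compares these libraries, not animals or conditions. Mir125a was 2.85-fold higher in replicate 2 (2.75 to 2.96), a log2 ratio of 1.51, against a median of 0.43 and an SD of 1.26 over all 305 genes. Its absolute log2 ratio was at least as large as those of 78.7% of the genes. Thus 1 of 9 cluster genes was called, against 33.8% of all genes tested. That gene was higher in replicate 2, as were 26.9% of all genes by the same call, and 0 of 9 were called higher in replicate 1, against 6.89%. Mir125a was also the 1 cluster gene called with TMM, against 32.1% of all genes, and with DESeq2 size factors, against 31.8%.

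The other 8 genes differed by less than 2-fold, although all 9 had an adjusted p under 0.05 by the exact binomial test, as did 67.9% of the genes tested. Mirlet7c-1 was 1.80 times as high in replicate 2 (1.53 to 2.11, adjusted p = 4.38e-14 by the exact binomial test), Mirlet7a-2 1.40 times (1.14 to 1.72, adjusted p = 0.00187 by the exact binomial test), Mirlet7e 1.35 times (1.30 to 1.41) and Mir125b-1 1.20 times (1.02 to 1.42, adjusted p = 0.0339 by the exact binomial test). Mir99a was 1.32 times as high in replicate 1 (1.30 to 1.33), Mir100 1.47 times (1.44 to 1.4996), Mir99b 1.14 times (1.09 to 1.20) and Mir125b-2 1.41 times (1.11 to 1.78, adjusted p = 0.00788 by the exact binomial test). The median log2 ratio of the 9 genes was 0.27, against 0.43 over all genes tested. Of the skeletal muscle markers, 7 passed the same minimum, of which 3 were called higher in replicate 2 (Mir206, Mir208b and Mir499) and 0 higher in replicate 1, with 5 ratios above 1 and 2 below. Both smooth muscle markers were lower in replicate 2, and 1 of them, Mir145a, was called. Of the 4 leukocyte markers, Mir142 and Mir223 were called higher in replicate 1. The other 2, Mir150 (1.05 times) and Mir155 (1.48 times), were higher in replicate 2 and not called. The part of these cell types in the differences of the cluster genes was not tested.

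**Figure D4:**
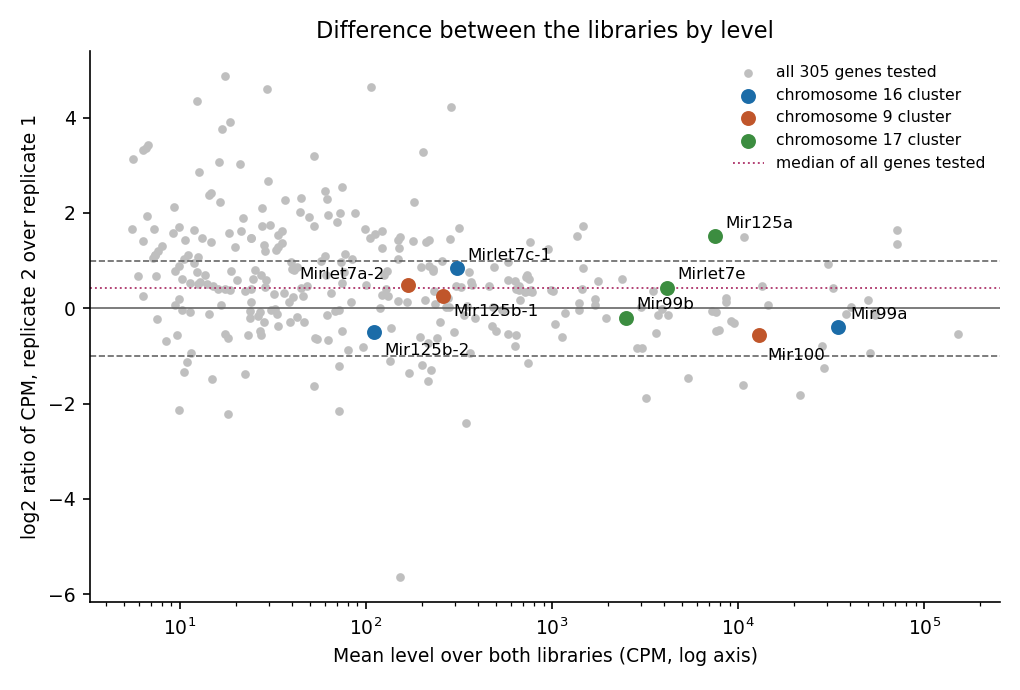
log2 ratio of CPM in replicate 2 over replicate 1 against mean CPM (log axis) for the 305 genes tested (grey) and the cluster genes (coloured by chromosome), with dashed lines at a 2-fold difference. Mir125a lies at 1.51, above the upper line, and the other 8 cluster genes lie between -0.55 and 0.84.

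Read by position in the cluster, the miR-99/100 gene had a lower CPM and the let-7 gene a higher CPM in replicate 2 in all 3 clusters, with library totals, TMM and DESeq2 size factors alike. With library totals, 206 of the 305 genes tested were likewise higher in replicate 2 and 99 lower, so the direction of the let-7 genes was the common one. The log2 ratios of Mir99a, Mir100 and Mir99b were -0.40, -0.55 and -0.19 with library totals and -0.81, -0.97 and -0.61 with DESeq2 size factors. Those of Mirlet7c-1, Mirlet7a-2 and Mirlet7e were 0.84, 0.48 and 0.43 with library totals and 0.43, 0.06 and 0.02 with DESeq2 size factors, so the latter are close to no difference. Free of scaling, the ratio of the let-7 gene to the miR-99/100 gene of its own cluster was 2.36 times as high in replicate 2 on chromosome 16, 2.05 times on chromosome 9 and 1.55 times on chromosome 17. The miR-125 gene followed no single direction. Its ratio to the miR-99/100 gene was 0.934 times that of replicate 1 for Mir125b-2, 1.76 times for Mir125b-1 and 3.26 times for Mir125a. These ratios are free of scaling but not of multimapping, which took 80.7% of reads in replicate 1 and 71.0% in replicate 2. Mirlet7c-1, Mirlet7a-2, Mir125b-1 and Mir125b-2 lose reads to that tally, and its part in their ratios was not tested.

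Related genes outside the clusters were compared in the same test. Mir10a and Mir10b, which lie among the Hox genes and belong to the wider family of miR-99 and miR-100, were both lower in replicate 2, so all 5 genes of that family lay on the same side, as did 99 of the 305 genes tested. Mir10a stood at 4274 and 3002 CPM and was not called, and Mir10b stood at 33546 and 9434 CPM and was called, 3.56-fold higher in replicate 1 (3.49 to 3.62). Of the 9 other let-7 genes, 0 were called by the exact binomial test, against 33.8% of all genes, although 8 had an adjusted p under 0.05. Of these, 4 had a ratio above 1 and 5 below 1, from a log2 ratio of 0.93 for Mirlet7d to -0.29 for Mirlet7f-1. Their median log2 ratio was -0.07, against values from 0.43 to 0.84 for the 3 let-7 genes of the clusters. The 2 ranges overlap. Of the 4 with a ratio above 1, Mirlet7d exceeded all 3 cluster genes, while Mirlet7b (0.42), Mirlet7c-2 (0.38) and Mirlet7a-1 (0.21) lay below them.

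**Figure D5:**
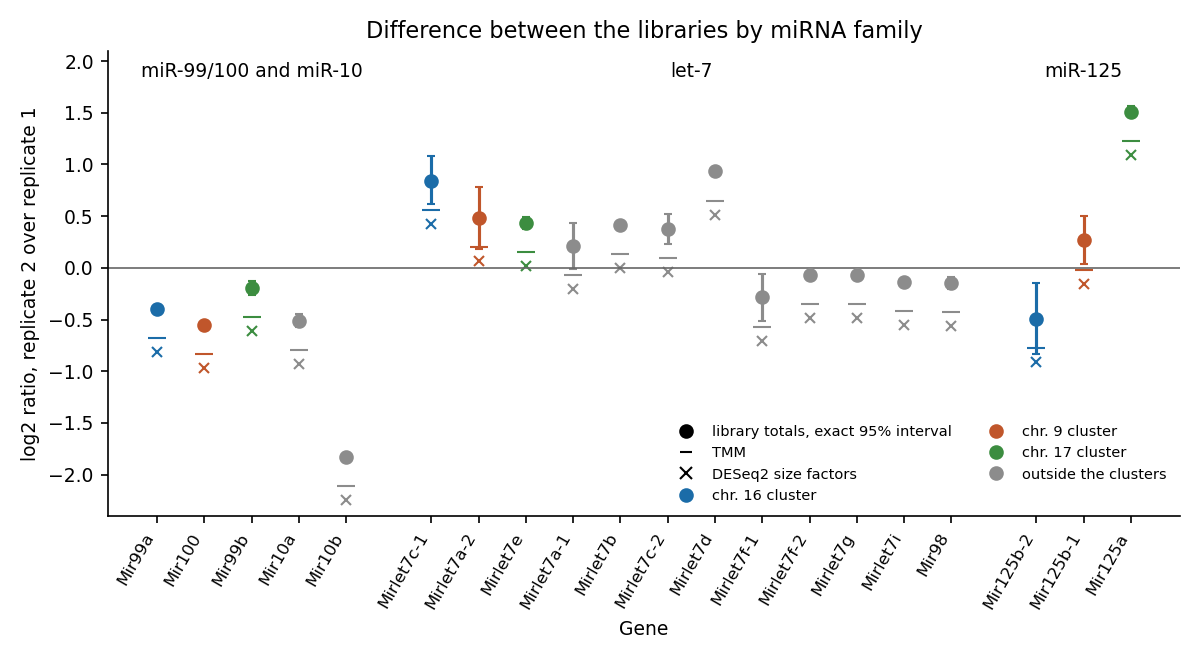
log2 ratio of replicate 2 over replicate 1 for the cluster genes (coloured) and related genes (grey) by family, with library totals (circles, exact 95% interval), TMM (dashes) and DESeq2 size factors (crosses). All 5 miR-99/100 and miR-10 genes lie below 0, from -0.19 to -1.83 with library totals, and Mir125b-1 crosses 0 under the other scalings.

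The genes most like the leading gene of each cluster were found by Euclidean distance in log2 CPM over the 2 libraries. Nearest to Mir99a were Mir23b (distance 0.29), Mir23a (0.45) and Mir30a (0.55). Nearest to Mir100 were Mir29a (0.52), Mir30d (0.63) and Mir191 (0.69). Nearest to Mir125a was Mir149 (0.72), at 5613 and 15841 CPM, followed by Mir30e (1.05), at 7894 and 9219 CPM, and Mir744 (1.11), at 8172 and 9009 CPM. Of these 3, Mir149 alone was, like Mir125a, more than 2-fold higher in replicate 2. With 2 libraries, such likeness describes level only.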

How the data were processed

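Short RNA was sequenced from gastrocnemius in 2 libraries of 1 group. The deposited values are raw counts of reads per miRNA gene; per the file headers and README, they refer to mm10 and GENCODE M21, and no aligner, counter or trimming step is given in the sources used here. The files have 3 unlabelled columns, which their values show to be unstranded, sense and antisense counts; the sense column was used. The 4 tallies stayed out of library sizes; multimapping reads made up 80.7% and 71.0% of all reads.

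CPM, ratios, exact intervals and exact binomial tests were computed in Python 3.11.15 (pandas 2.3.3, SciPy 1.17.1, NumPy 2.4.6); a count of 0 enters a ratio as 3. TMM (edgeR 4.0.16) and DESeq2 1.42.0 size factors, in R 4.3.3, came from the genes that averaged 10 or more counts. With 1 group, no edgeR contrast could be fitted. The test was checked on simulated Poisson counts, which hold counting error only, so the check does not cover any further spread between libraries. Sequences came from RefSeq (GRCm38.p6), which held a hairpin for 7 of 9 genes; copies were sought in GENCODE M21 hairpins, not a genome, with hairpins overlapping on either strand taken as 1 locus. Apart from cell type markers, named genes were the 9 members, genes sharing a miRNA or family with them, the 3 nearest genes per cluster and host genes; Mir351, named for its seed, falls outside that rule. The 9 genes were defined by symbol and not by a measured value, but they, the lists and the tests were chosen with earlier results of these data known. Alternatives were the column, filter, scaling, ratio threshold, hairpin length, a pseudocount of 0.5 counts, totals without let-7 genes, and leaving out each library.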

Additional observations from a re-analysis of the deposited data

How the results depend on the processing

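Mir125a was called higher in replicate 2, and was the 1 cluster gene called, with no filter (17.3% of all genes called), with a mean of at least 100 counts (29.4%), under both other scalings and in the unstranded column (32.6%, with 8 cluster genes tested). Without a ratio threshold, 9 cluster genes were called. Over all genes, 103 were called, against 50 with a mean of at least 100 counts (170 genes tested) and 207 with no ratio threshold. Of the calls, 79.6% were higher in replicate 2, against 67.3% under TMM and 59.8% under DESeq2 size factors, which lower every log2 ratio by a shift of -0.28 and -0.42. The log2 ratio of Mir125b-1, 0.27 with library totals, turned to -0.017 (TMM) and -0.15 (DESeq2 size factors), while the sign of the other 8 did not change.

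In the unstranded column Mirlet7e, which the opposite-strand gene Gm25927 overlaps, has 0 counts in both libraries. Taken at the floor of 3 counts per library, its mean log2 ratios, 0.71 to Mir99b, 3.79 to Mirlet7c-1 and 4.63 to Mirlet7a-2, turned to -10.16, -7.08 and -6.24, and that of Mir125a to Mirlet7e moved from 0.69 to 11.56. Per base of hairpin, the log2 ratio of Mir99a to Mir100 moved from 1.44 to 1.74, of Mir99a to Mir125b-2 from 8.29 to 8.42, of Mir125b-1 to Mirlet7a-2 from 0.65 to 0.96 and of Mirlet7e to Mirlet7a-2 from 4.63 to 4.67; the other 14 pairs moved by less than the SD over the libraries. A pseudocount of 0.5 counts moved none of the 18 pairs by more than that SD. The mean level moved by more than its SD for 7 cluster genes in the unstranded column and for 5 with let-7 genes left out of the totals, and for 0 with either other scaling. With 1 library left out, a level or ratio is that of the other library and has no test; no call between the libraries can then be made. No paired analysis was possible because both libraries belong to 1 group.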

Other observations

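Over all miRNA genes with a mature sequence in RefSeq, 111 have an arm found at 2 or more annotated loci, as 4 of the cluster genes have, and 907 do not. Of these, 39 and 236 passed the minimum mean of 10 counts, with a median mean level of 111 and 75.6 CPM. These medians leave out the genes under that minimum and count a shared 5p or 3p arm alike, so they do not compare the level of the groups as a whole. Within the clusters, all 4 such genes lay below the other 5. The antisense column held 0 counts for each of the 9 cluster genes in both libraries.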
